A study of Mus musculus with 25 samples.

Results

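Disease-associated microglia (DAM) genes are the genes that microglia turn on around amyloid plaques and dying neurons in mouse models of neurodegeneration. Of them, 10 were followed here by symbol, Cst7, Clec7a, Axl, Lyz2, Lgals3, Apoe, Trem2, Tyrobp, Itgax and Spp1, out of 43411 genes counted. The paper reported Cst7, Clec7a, Axl and Lyz2 among the differentially expressed genes of these same libraries, so the list was not chosen independently of the data. All 10 passed the filter on low counts, among 12908 genes tested. Microglia were sorted by FACS as CD11b+ CD45med cells from whole brain without cerebellum and olfactory bulbs, and 23 mice of 3 months of age gave 1 RNA library each. The strain joins the floxed Bin1 allele of B6.129S6-Bin1tm2Gcp/J with the transgene of FVB/N-Tg(Thy1-cre)1Vln/J, which expresses Cre in neurons. WT mice were Bin1flox/wt Thy1-Cre- (n = 6; 2 females, 4 males), heterozygous mice were Bin1flox/wt Thy1-Cre+ (n = 7; 4 females, 3 males), and homozygous mice were Bin1flox/flox Thy1-Cre+ (n = 10; 5 females, 5 males). Every mouse, WT included, therefore carried a floxed Bin1 allele, and homozygous mice differed from heterozygous mice in the number of floxed alleles, in microglia as well as in neurons. No mouse carried a Tau or amyloid transgene by its label.

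Microglia at rest express sensing genes such as Cx3cr1, P2ry13 and Tmem119, and DAM lose part of these while gaining lysosomal, lipid-handling and phagocytic genes. TREM2 is a lipid-sensing receptor that signals through its adaptor TYROBP, and apolipoprotein E, a protein of lipoprotein particles, is bound by TREM2. In the usual description, Apoe, Tyrobp and Lyz2 belong to a first stage of the program that does not need TREM2, and Trem2 itself rises in the program as well. Axl, Clec7a, Cst7, Itgax, Lgals3 and Spp1 belong to a second stage that needs TREM2. The question asked of these data was whether microglia show this program after deletion of Bin1 in neurons, and in which of its genes. By the paper, neuronal Bin1 protein was reduced after this deletion but could still be detected.

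Libraries held between 10812877 and 16734740 counts (median 13477880). Levels are given as CPM, counts relative to the TMM-normalized library total. A DEG needed an adjusted p below 0.05 together with a change of more than 1.5-fold, up or down. "Passed" refers to the adjusted p alone. Group differences were tested with edgeR (quasi-likelihood) with sex in the fit, and their p values were adjusted over all genes tested by the Benjamini-Hochberg method. All WT and heterozygous mice had animal numbers in the lowest range (02xx), whereas 6 homozygous mice had numbers in a 03xx range and 4 in a 04xx range, so genotype and number range cannot be told apart. Homozygous mice F1, F2, M1 and M2, all of the 03xx range, stood apart from the rest by Fos, an immediate-early gene, at 824 to 1459 CPM against 0.36 to 7.0 CPM in the other 6 homozygous mice. The targeted gene itself, Bin1, averaged 481 ± 130.2 CPM in the sorted cells of homozygous mice (SD, n = 10), against 692 ± 40.6 CPM in those of heterozygous mice (SD, n = 7) and 699 ± 88.3 CPM in those of WT mice (SD, n = 6). Bin1 was itself a DEG between homozygous and WT mice (log2 fold change -0.60, adjusted p = 0.00173). The microglia markers were abundant in every library, with a summed level of 10 markers between 53885 and 89737 CPM. In sorted bulk cells, fewer cells of a type and less RNA per cell cannot be told apart.

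Between homozygous and WT mice, 4 of the 10 DAM genes were DEGs and all 4 were higher, Lyz2, Lgals3, Cst7 and Axl. In the same comparison 3.4% of all genes tested were DEGs. By adjusted p alone the same 4 DAM genes were higher, against 5.66% of all genes, and 1, Trem2, was lower, against 7.09% of all genes. Lyz2 rose from a mean of 142 to 353 CPM and Trem2 fell from 2360 to 1707 CPM. The 10 genes did not move as a block, since Apoe, Tyrobp and Itgax did not pass and had log2 fold changes between -0.03 and 0.05. The median log2 fold change of the 10 was 0.76, and that of all genes tested was 0.01. The 10 genes were chosen with earlier results of these data known, so these counts and medians describe the list and are no independent test of it. The ranges of homozygous and WT mice did not overlap for Lyz2 and for Trem2, and 1.81% of all genes had such a separation. The paper did not name Lgals3 among its differentially expressed DAM genes, and it did name Clec7a, which was not a DEG here.

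**Figure D1:**
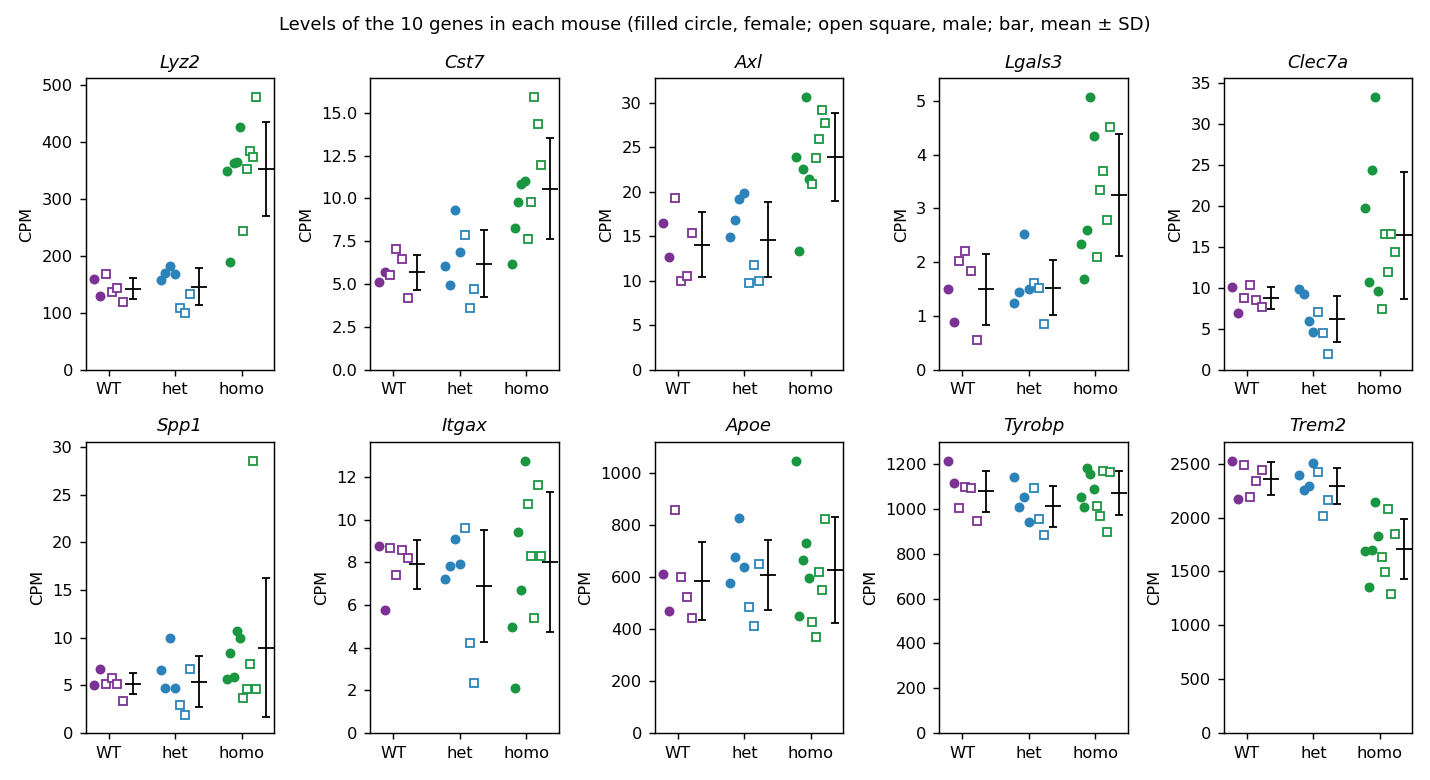
Levels (CPM, linear axis from 0) of each DAM gene in each mouse, by genotype (het, heterozygous; homo, homozygous), with a black bar for the mean ± SD beside each group. All homozygous mice lie above all WT mice for Lyz2 and below all WT mice for Trem2. The groups overlap for Apoe, Tyrobp and Itgax, with homozygous values of Apoe and Itgax on both sides of the WT range. For Spp1, 1 homozygous mouse stands alone at 28.6 CPM.

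The sequences just upstream of the 5 genes that passed are shown first, since 4 of them rose together and Trem2 fell. They are the last bases before the start given by RefSeq on GRCm38.p6, from 150 bases upstream, read 5′ to 3′ on the gene's own strand and with annotated exon bases left out, which shortens Lyz2 to 101 bases and Lgals3 to 103. The Lgals3 start of RefSeq lies inside the longer gene of GENCODE. Capitals mark matches to GAGGAA, a core bound by PU.1, the master regulator of microglia and macrophages, and to TGANTCA, bound by AP-1, the dimer that contains FOS, on either strand.
Lyz2, chr10:117282322-117282422, minus strand: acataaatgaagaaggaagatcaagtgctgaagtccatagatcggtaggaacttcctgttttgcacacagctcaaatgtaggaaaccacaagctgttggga
Cst7, chr2:150570265-150570414, plus strand: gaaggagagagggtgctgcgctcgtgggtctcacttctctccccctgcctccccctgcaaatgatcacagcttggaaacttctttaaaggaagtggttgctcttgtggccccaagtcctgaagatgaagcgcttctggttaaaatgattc
Axl, chr7:25788734-25788883, minus strand: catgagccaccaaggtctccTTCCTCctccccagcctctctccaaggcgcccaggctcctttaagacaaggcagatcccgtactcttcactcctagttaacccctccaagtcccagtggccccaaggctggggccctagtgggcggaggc
Lgals3, chr14:47373710-47373812, plus strand: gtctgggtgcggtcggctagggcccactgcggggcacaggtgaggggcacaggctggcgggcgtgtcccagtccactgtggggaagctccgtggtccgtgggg
Trem2, chr17:48346251-48346400, plus strand: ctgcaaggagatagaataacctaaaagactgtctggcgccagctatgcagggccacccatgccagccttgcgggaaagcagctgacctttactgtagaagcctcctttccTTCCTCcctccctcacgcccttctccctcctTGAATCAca
Of the 10 genes, 9 matched a RefSeq promoter by symbol, all but Tyrobp. GAGGAA occurred in 4 of these 9 (Clec7a, Axl, Trem2 and Spp1) and in 14.4% of 27025 mouse promoters of the same 150 bases. TGANTCA occurred in 2 (Trem2 and Itgax) and in 4.27% of promoters. CACGTG, the E-box bound among others by the MiT family, which regulates lysosomal genes, occurred in 0 of the 9 and in 4.3% of promoters. No match of a motif overlapped a match of another in the 5 sequences shown. Among these 5, Trem2 held both motifs, GAGGAA on the opposite strand beginning 40 bases before the start and TGANTCA beginning 9 bases before it. Axl held GAGGAA on the opposite strand, from 130 bases before the start. Lyz2, Cst7 and Lgals3 held no match to either in the whole window. A match is a description of the letters and not a site.

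Per kilobase of exon, the scale on which genes can be compared, WT microglia ranked the DAM genes with Tyrobp highest at 1619 ± 138.7 CPM per kb (SD, n = 6). Trem2 followed at 477 ± 31.1 CPM per kb, Apoe at 274 ± 70.6 and Lyz2 at 108 ± 14.2. The other 6 genes were far lower, between 0.805 CPM per kb for Lgals3 and 5.76 CPM per kb for Cst7. Among these low genes Clec7a (3.29 ± 0.509), Spp1 (3.14 ± 0.666) and Axl (2.79 ± 0.725) did not differ beyond their spread. In homozygous mice Lyz2 reached 268 ± 62.8 CPM per kb (SD, n = 10) and came within the spread of Apoe at 294 ± 95.3 CPM per kb, and Trem2 at 345 ± 56.9 CPM per kb was within the spread of Apoe. Both the highest and the lowest of the 6 low genes, Cst7 and Lgals3, were DEGs, and Lgals3 rested on few reads, 8 to 83 counts per mouse.

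Lyz2 (ENSMUSG00000069516.7, chromosome 10 from 117277331 to 117282321, minus strand, on GRCm38) encodes lysozyme C-2, a secreted and lysosomal enzyme that cleaves bacterial cell walls and marks myeloid cells. Its lowest, median and highest levels were 118, 139 and 169 CPM in WT mice. In heterozygous mice they were 99.1, 158 and 183 CPM. In homozygous mice they were 190, 365 and 479 CPM. All 10 homozygous mice lay above all WT mice and above all heterozygous mice, and F2 and M1 were the lowest of them at 190 and 243 CPM. The share of all genes that separate homozygous from heterozygous mice in this way was not counted. Homozygous mice exceeded WT mice by 1.29 on the log2 scale (standard error 0.16, adjusted p = 3.54e-05). Lyz2 shares 40.5% of its 25-base sequences with its neighbour Lyz1, so reads could be split between the pair. Lyz1 itself had at most 17 counts in a mouse, and was therefore not tested.

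Cst7 (ENSMUSG00000068129.5, chromosome 2 from 150570415 to 150578944) encodes cystatin F, an inhibitor of lysosomal cysteine proteases. It was at 4.20, 5.63 and 7.06 CPM (lowest, median and highest) in WT mice and at 6.18, 10.3 and 15.9 CPM in homozygous mice. In 9 of 10 homozygous mice it lay above all WT mice, with F1 the exception. On the log2 scale it rose by 0.91 (standard error 0.21, adjusted p = 0.00588).

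Lgals3 (ENSMUSG00000050335.14, chromosome 14 from 47367751 to 47386160) encodes galectin-3, a sugar-binding lectin released by phagocytic cells that also binds damaged lysosomes. Its lowest, median and highest levels were 0.541, 1.66 and 2.21 CPM in WT mice and 1.69, 3.06 and 5.06 CPM in homozygous mice. The groups overlapped, with 8 of 10 homozygous mice above all WT mice and F2 and M1 within their range. Its log2 fold change against WT was 1.12 (standard error 0.32, adjusted p = 0.0226). The call was lost without WT mouse F2 (adjusted p = 0.0629) or without WT mouse M4 (adjusted p = 0.0568), and held in 21 of 23 refits that each dropped 1 mouse.

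Axl (ENSMUSG00000002602.14, chromosome 7 from 25757273 to 25788705, minus strand) encodes a TAM receptor tyrosine kinase, which binds GAS6 on dying cells and takes part in their clearance. It was at 9.93, 14.0 and 19.3 CPM (lowest, median and highest) in WT mice and at 13.4, 23.8 and 30.6 CPM in homozygous mice. In 9 of 10 homozygous mice it lay above all WT mice, and F2 lay within their range. The rise on the log2 scale was 0.75 (standard error 0.18, adjusted p = 0.00745). The calls of Lyz2, Cst7 and Axl held in 23 of 23 refits that each dropped 1 mouse.

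Trem2 (ENSMUSG00000023992.12, chromosome 17 from 48346401 to 48354147) encodes the receptor on which the second stage depends. In WT mice its lowest, median and highest levels were 2171, 2390 and 2528 CPM. In homozygous mice they were 1291, 1695 and 2149 CPM. All 10 homozygous mice lay below all WT mice, the highest of them, F4, just under the lowest WT mouse. On the log2 scale the difference was -0.48 (standard error 0.09, adjusted p = 0.00101), short of the fold change threshold of a DEG. It passed in 23 of 23 refits that each dropped 1 mouse. No other gene of the 10 fell. Beside this, the 10 microglia markers summed to 62626 to 89737 CPM in WT mice and to 53885 to 63097 CPM in homozygous mice. Of these 10 markers, 8 were lower and 6 of the 8 passed, where 7.09% of all genes passed lower. The median log2 fold change of the 10 markers was -0.29, and their part in the fall of Trem2 was not tested.

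Tyrobp (ENSMUSG00000030579.9, chromosome 7 from 30413760 to 30417585), which encodes the adaptor through which TREM2 signals, was at 949, 1097 and 1216 CPM (lowest, median and highest) in WT mice and at 896, 1071 and 1186 CPM in homozygous mice. The groups overlapped almost entirely. Its log2 fold change against WT was -0.03 (95% interval -0.16 to 0.11, adjusted p = 0.837), so the interval excludes a change of the size seen in Trem2.

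Apoe (ENSMUSG00000002985.13, chromosome 7 from 19696109 to 19699188, minus strand), which carries lipids between cells, was at 442, 563 and 860 CPM in WT mice and at 371, 608 and 1049 CPM in homozygous mice. Its homozygous values spread on both sides of the WT range, with 1 mouse (F1) above all WT mice and 2 (M1 and M2) below. The estimated log2 fold change of 0.05 (95% interval -0.33 to 0.42) did not pass (adjusted p = 0.913).

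Itgax (ENSMUSG00000030789.8, chromosome 7 from 128129547 to 128150657), which encodes CD11c, a subunit of a complement receptor, was at 5.79, 8.39 and 8.79 CPM in WT mice and at 2.13, 8.29 and 12.8 CPM in homozygous mice. Homozygous mice lay on both sides of the WT range, 4 above and 3 below. At 0.03, the log2 fold change was near 0 (95% interval -0.57 to 0.62, adjusted p = 0.973). This interval is wide enough to hold an increase of 1.5-fold. Itgax shares 11.7% of its 25-base sequences with Itgad.

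Spp1 (ENSMUSG00000029304.12, chromosome 5 from 104435118 to 104441050) encodes osteopontin, a secreted phosphoprotein that binds integrins. It was at 3.38, 5.10 and 6.75 CPM in WT mice and at 3.65, 6.54 and 28.6 CPM in homozygous mice. In 5 of 10 homozygous mice it lay above all WT mice, and 1 of these, M4, was far above the others. Its log2 fold change against WT was 0.77 (standard error 0.38, adjusted p = 0.192) and did not pass. Without homozygous mouse M4 it was 0.20 (adjusted p = 0.662). Spp1 shares 15.2% of its 25-base sequences with the annotated gene Gm42793.

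Clec7a (ENSMUSG00000079293.9, chromosome 6 from 129461591 to 129472779, minus strand, given as a polymorphic pseudogene by GENCODE) encodes dectin-1, a receptor for fungal beta-glucans and a usual surface marker of DAM. Its lowest, median and highest levels were 6.89, 8.61 and 10.3 CPM in WT mice. In heterozygous mice they were 1.86, 5.98 and 9.86 CPM. In homozygous mice they were 7.37, 15.4 and 33.2 CPM. In 8 of 10 homozygous mice it lay above all WT mice, with M1 and F5 within their range. The difference from WT mice, 0.80 on the log2 scale (standard error 0.28, adjusted p = 0.0559), did not pass. It passed in 5 of 23 refits that each dropped 1 mouse, those without heterozygous M4, homozygous F2, F5 or M1, or WT M2, with adjusted p values between 0.0318 and 0.149 over the 23. DESeq2 called it (adjusted p = 0.0233).

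**Figure D2:**
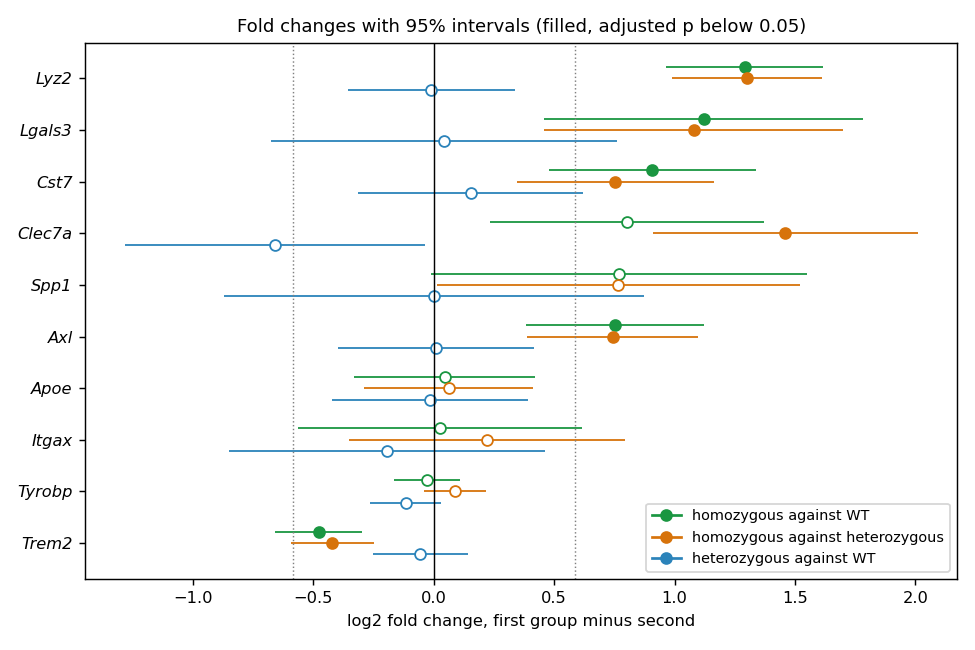
Log2 fold change (first group minus second) of each DAM gene in the 3 comparisons, with 95% intervals. Filled points have an adjusted p below 0.05, and dotted lines mark a 1.5-fold change. Lyz2, Lgals3, Cst7, Axl and Trem2 are filled against both WT and heterozygous mice, Clec7a only against heterozygous mice, and no gene is filled between heterozygous and WT mice.

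Between heterozygous and WT mice, 0 of the 10 DAM genes passed, and 0% of all genes tested were DEGs in edgeR's quasi-likelihood test. DESeq2 and limma-voom called 0 genes as well. At an unadjusted p below 0.05 there were 998 genes, 1 of them a DAM gene, Clec7a. Clec7a was lower in heterozygous mice with a log2 fold change of -0.66 (95% interval -1.28 to -0.04, p = 0.0391, adjusted p = 0.612), and 4 of 7 heterozygous mice lay below all WT mice. For Lyz2 the interval of the difference ran from -0.36 to 0.34, for Axl from -0.40 to 0.42 and for Trem2 from -0.25 to 0.14 on the log2 scale. Heterozygous M3 was low for many of the genes, with 7 of the 10 below all WT mice, whereas heterozygous F3 had 5 above all WT mice. How many of all genes these mice had outside the WT range was not counted.

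Between homozygous and heterozygous mice, both of which carry Cre, 5 of the 10 DAM genes were DEGs, Lyz2, Clec7a, Lgals3, Cst7 and Axl, all higher in homozygous mice. In this comparison 6.62% of all genes were DEGs. By adjusted p alone 5 DAM genes were higher, against 11.1% of all genes, and Trem2 was lower, against 11.7% of all genes. Both comparisons use the same homozygous mice, so the values are given side by side. The log2 fold change against heterozygous mice was 1.30 for Lyz2 (standard error 0.15, adjusted p = 6e-06) and 1.46 for Clec7a (standard error 0.27, adjusted p = 0.000511). It was 1.08 for Lgals3 (adjusted p = 0.0123), 0.75 for Cst7 (adjusted p = 0.00834) and 0.74 for Axl (adjusted p = 0.00345). For Trem2 it was -0.42 (standard error 0.08, adjusted p = 0.000993), with 8 of 10 homozygous mice below all heterozygous mice. Clec7a was thus the gene whose call depended on the reference group, with WT mice at 8.67 ± 1.34 CPM (SD, n = 6) and heterozygous mice at 6.13 ± 2.82 CPM (SD, n = 7).

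Within homozygous mice F2 and F4 held several of the extreme values, and the others were spread over further animals. F2 held the lowest value of Lyz2, Axl, Lgals3 and Itgax, whereas F4 held the highest value of Axl, Lgals3, Clec7a and Trem2, M5 the highest of Lyz2, M3 the highest of Cst7 and M4 the highest of Spp1. The number of DAM genes above all WT mice ranged from 4 of 10 (F2 and M1) to 7 of 10 (M4). The share of all genes above all WT mice in each animal was not counted. Of 45 pairs of DAM genes, 39 had a positive Pearson correlation of log2 CPM over the 10 homozygous mice. Lyz2 and Lgals3 had r = 0.817 (permutation p = 0.00103, adjusted p = 0.038 over the 45 pairs) and rho = 0.830 (permutation p = 0.00464, adjusted p = 0.073). Without the mice farthest from the median of Lyz2, F2 and M1, r was 0.588, and within the 6 mice of the 03xx range it was 0.858. Trem2 and Tyrobp, the receptor and its adaptor, had r = 0.856 (permutation p = 0.00169, adjusted p = 0.038) and rho = 0.830 (permutation p = 0.00487, adjusted p = 0.073). Without M4 and F4, r was 0.771, and within the 03xx range it was 0.756. These were the only pairs with an adjusted p below 0.05 for r, and no pair passed for rho, with 7 pairs at an unadjusted permutation p below 0.05. The 04xx range, with 4 mice, was too small for a correlation of its own. The Fos-high mice all belong to the 03xx range, and for every DAM gene their median was below that of the other homozygous mice. The part of this split in the correlations was not tested, and the share of positive pairs among all genes was not measured.

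**Figure D3:**
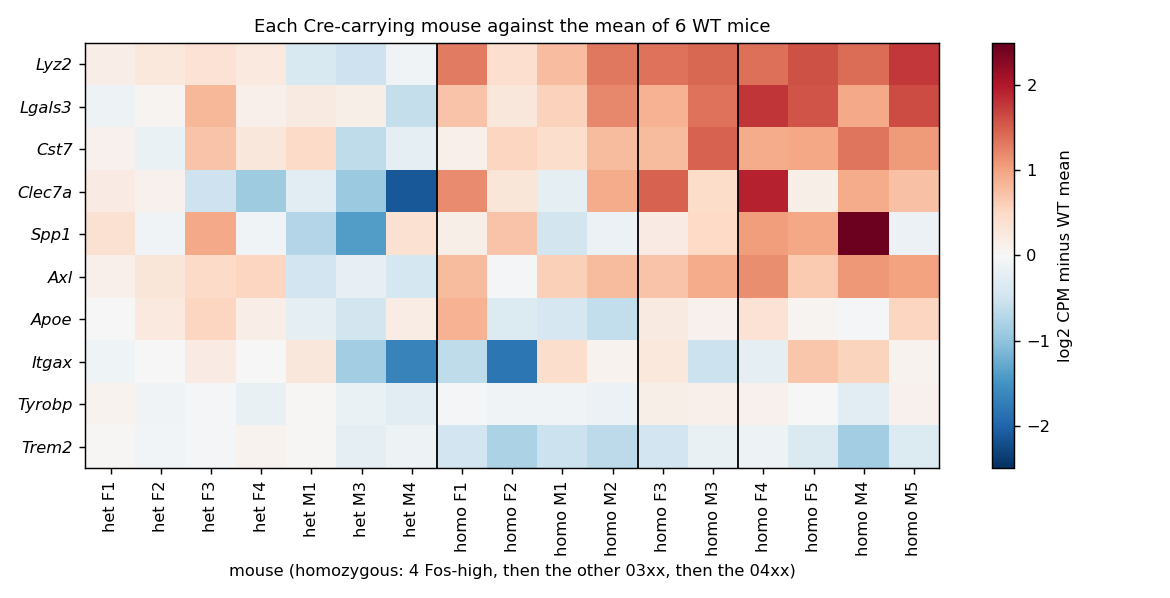
Log2 CPM of each DAM gene in each heterozygous and homozygous mouse minus the mean of the 6 WT mice (colour, red higher and blue lower). Vertical lines separate the heterozygous mice, the 4 Fos-high homozygous mice, the other 03xx mice and the 04xx mice. The Lyz2 row is red and the Trem2 row blue in all 10 homozygous mice, while the Apoe and Itgax rows change colour from mouse to mouse.

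The rise was present in both number ranges of homozygous mice. Against WT mice, 3 DAM genes were DEGs in the 03xx mice (Lyz2, Cst7 and Axl), where 3.66% of all genes were DEGs. In the 04xx mice 5 were DEGs (Lyz2, Cst7, Axl, Lgals3 and Spp1), where 2.54% of all genes were. Lyz2 was at 314 ± 78.2 CPM (SD, n = 6) in 03xx mice and 411 ± 52.2 CPM (SD, n = 4) in 04xx mice, with log2 fold changes against WT of 1.12 and 1.51. Trem2 was lower than in WT mice in both ranges, with log2 fold changes of -0.52 (adjusted p = 0.00188) and -0.42 (adjusted p = 0.0259). Lgals3 did not pass in 03xx mice (log2 fold change 0.82, adjusted p = 0.112). Spp1 was at 5.90 ± 1.73 CPM (SD, n = 6) in 03xx mice and 13.5 ± 10.4 CPM (SD, n = 4) in 04xx mice, which include M4. Tested directly, the ranges differed in 0 of the 10 genes by edgeR's quasi-likelihood test, where 0.356% of all genes were DEGs. At an unadjusted p below 0.05 there were 2 such genes, Spp1 (log2 difference 1.24, p = 0.00361, adjusted p = 0.201) and Lyz2 (0.39, p = 0.0319, adjusted p = 0.434), both higher in 04xx mice. With genes of low counts kept in the table, Spp1 passed (adjusted p = 0.0199).

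In the 4 Fos-high homozygous mice Lyz2 was at 190 to 353 CPM, below the 364 to 479 CPM of the other 6, and still above all WT mice. Cst7 was at 6.18 to 9.81 CPM in the Fos-high mice and at 9.80 to 15.9 CPM in the others. Immediate-early genes were higher in homozygous than in WT mice in 13 of 13 tested. Of these, 12 passed, where 5.66% of all genes passed higher. Their median summed level was 920 CPM in homozygous mice against 533 CPM in WT mice. Without the 4 mice the log2 fold change against WT was 1.46 for Lyz2, 1.35 for Lgals3, 1.12 for Cst7, 0.87 for Axl and 0.95 for Clec7a (adjusted p = 0.0437), all 5 called, where 2.52% of 12735 genes tested were. Trem2 was then at -0.39 (adjusted p = 0.0123). With a score of immediate-early genes as a covariate Lyz2, Lgals3, Cst7 and Axl were called against WT mice, where 2.2% of all genes were, and Trem2 passed at -0.36 (adjusted p = 0.0309).

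The genotype effect was tested in each sex, and 6.06% of all genes passed in males and 0.457% in females. In males Lyz2 (log2 fold change 1.37, adjusted p = 0.000165), Cst7 (1.03, adjusted p = 0.0193), Axl (0.89, adjusted p = 0.0109) and Trem2 (-0.50, adjusted p = 0.0124) passed. In females, with 2 WT mice, Lyz2 passed (1.23, adjusted p = 0.0265), and Cst7, Axl and Trem2 had the same sign at 0.77, 0.62 and -0.43 without passing. Lgals3 passed in neither sex, at 0.99 in males (adjusted p = 0.159) and 1.43 in females (adjusted p = 0.226). The effect did not differ detectably between the sexes for any of the 10 genes (interaction adjusted p = 0.995 for each), and the smallest unadjusted p among them was that of Apoe (0.201).

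Other genes of the program were read between homozygous and WT mice against the 5.66% of all genes that passed higher and the 7.09% that passed lower. Of 6 further first-stage genes, 1 rose, Fth1, which encodes the iron-storage ferritin heavy chain (log2 fold change 0.49, adjusted p = 0.000908), and 1 fell, Ctsd, which encodes the lysosomal protease cathepsin D (-0.32, adjusted p = 0.0083). Of 13 further second-stage genes tested, 1 rose, the late endosomal tetraspanin Cd63 (0.36, adjusted p = 0.0083), and 1 fell, the pyrophosphate transporter Ank (-0.48, adjusted p = 0.0122). Of 11 genes tested from later lists, 2 rose and 0 fell. They were the chemokine Ccl3, at 47.6 ± 37.3 CPM (SD, n = 10) in homozygous mice against 8.93 ± 3.23 CPM (SD, n = 6) in WT mice (log2 fold change 2.40, adjusted p = 0.000943), and the hyaluronan receptor Cd44, at 1.17 ± 0.743 CPM against 0.0504 ± 0.0619 CPM (adjusted p = 0.002). In heterozygous mice Cd44 was above WT mice as well, with a log2 fold change of 3.28, although no gene of the later lists passed there. Cd44 was barely counted in WT mice, so the size of its fold changes is uncertain. Between homozygous and heterozygous mice 1 of these 11 genes rose by adjusted p, where 11.1% of all genes did. The median log2 fold changes of these 3 lists between homozygous and WT mice were -0.10, -0.11 and -0.12.

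TREM2 signals through kinases and phospholipases, and of 9 such partners tested 0 rose and 2 fell, where 5.66% of all genes rose and 7.09% fell. They were Plcg2, which encodes the phospholipase downstream of TREM2 (log2 fold change -0.35, adjusted p = 0.0147), and Vav1, a guanine nucleotide exchange factor (-0.25, adjusted p = 0.0309). The median of these partners was -0.02.

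Homeostatic genes, which fall in DAM, were lower in homozygous mice in 14 of 15 tested, and 8 of these passed, where 7.09% of all genes passed lower. The 4 with the smallest p were the fractalkine receptor Cx3cr1 (log2 fold change -0.51, adjusted p = 0.000182), the P-selectin ligand Selplg (-0.44, adjusted p = 0.00025), Tmem119 (-0.43, adjusted p = 0.000295) and the purinergic receptor P2ry13 (-0.51, adjusted p = 0.000952). None of the 15 was a DEG, and the median of the list was -0.25. Trem2, at -0.48, therefore fell by an amount within the range of these genes, which ran from -0.51 to 0.06.

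**Figure D4:**
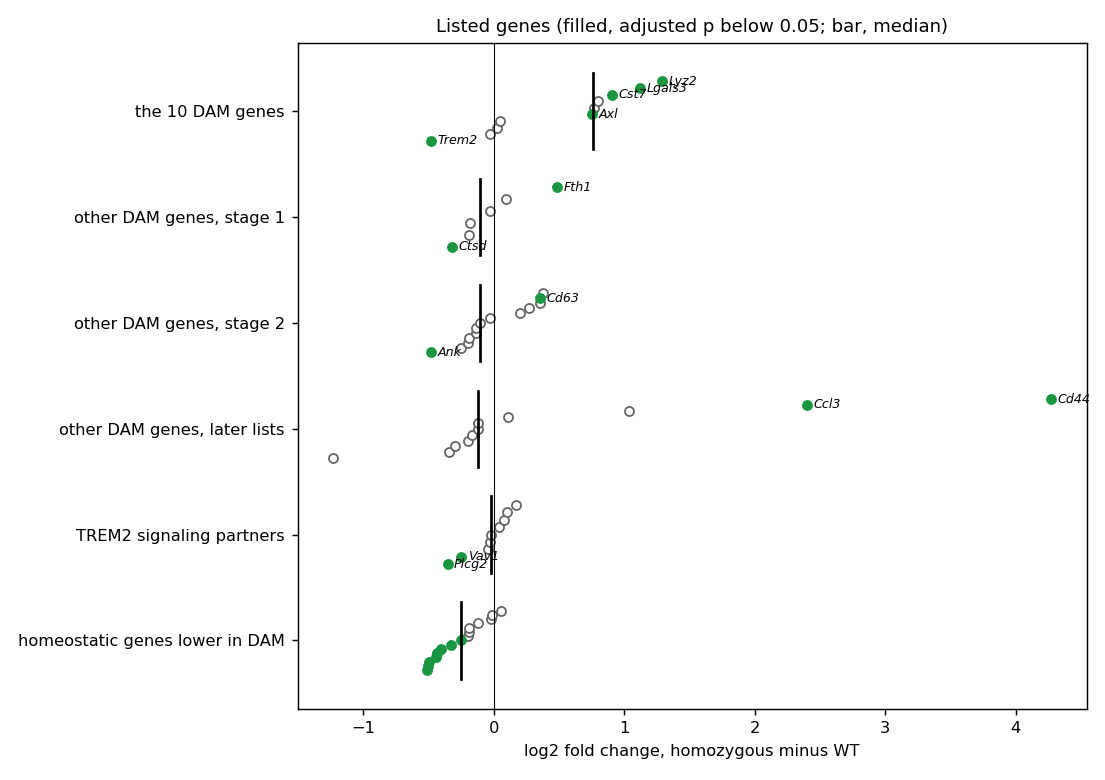
Log2 fold change (homozygous minus WT) of the 10 DAM genes and of 5 related lists, 1 point per gene tested, with a black bar at the median. Filled points have an adjusted p below 0.05 and are named except in the homeostatic list. The DAM genes have a median of 0.76, the 3 further DAM lists have medians between -0.12 and -0.10 with Ccl3 and Cd44 far to the right, and the filled homeostatic genes all lie below 0. Cd44 averaged 0.0504 CPM in WT mice, so the size of its change is uncertain. All lists were chosen with earlier results of these data known.

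Lyz2, Clec7a, Itgax and Lgals3 are also expressed by monocytes, neutrophils and dendritic cells, so markers of these cells are given beside them. The summed level of 7 monocyte and neutrophil markers ranged from 4.63 to 37.7 CPM (median 11.5) in WT mice, from 4.43 to 53.1 CPM (median 7.70) in heterozygous mice and from 12.6 to 98.4 CPM (median 43.3) in homozygous mice. Of 6 tested, 1 passed between homozygous and WT mice, where 5.66% of all genes passed higher. It was the chemokine receptor Ccr2, with a log2 fold change of 1.28 (adjusted p = 0.000812). For Ccr2 10 of 10 homozygous mice lay above all WT mice, and 1.81% of all genes had ranges that did not overlap. Of these 6, 5 were higher in homozygous mice, with a median log2 fold change of 1.81. The part of these markers in the Lyz2 result was not tested beyond the covariate fit given last. The 8 border macrophage markers summed to 8.46 to 34.0 CPM in WT mice and 6.57 to 40.2 CPM in homozygous mice, with 0 of 7 passing, none below an unadjusted p of 0.05, and Mrc1 listed at 0 in every mouse. The 7 dendritic cell markers summed to 23.4 to 35.2 CPM in WT mice and 24.5 to 31.9 CPM in homozygous mice, with 0 of 5 passing and 1 at an unadjusted p below 0.05. Batf3 made up most of that sum, with a median of 23.7 CPM in WT mice and 21.0 CPM in homozygous mice. With a score of border macrophage, monocyte and neutrophil markers as a covariate the same 4 genes were called, where 3.36% of all genes were, and Lyz2 had a log2 fold change of 1.20 (adjusted p = 7.63e-05). That score averaged both lists, and 0 of 7 border macrophage markers passed, so it did not stand for monocyte and neutrophil markers alone. A fit with the monocyte and neutrophil markers alone was not run.

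Markers of brain cells outside the gate were measured as well. The 8 neuron markers summed to 11.7 to 35.2 CPM in WT mice and 4.29 to 8.42 CPM in homozygous mice, with 5 of 5 tested lower, 3 of which passed. The 7 astrocyte markers summed to 235 to 268 CPM and 231 to 310 CPM, with 4 of 5 lower, 1 of which passed. Most of that sum was Slc1a3, with a median of 250 CPM in WT mice and 275 CPM in homozygous mice. Slc1a3 was also the only tested astrocyte marker that was higher, so the sum says little of the rest of the list. The 6 oligodendrocyte markers summed to 179 to 253 CPM and 153 to 209 CPM, with 4 of 5 lower, 2 of which passed. Their sum came mostly from Cnp, Mbp and Mag. For comparison, 7.09% of all genes tested passed lower between homozygous and WT mice. Apoe, which astrocytes express strongly, did not pass. The part of these markers in the DAM gene results was not tested.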

How the data were processed

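RNA from FACS-sorted microglia of 23 mice was analyzed. The authors aligned single-end reads to mm10 with OmicSoft OSA4 and Ensembl R84 and estimated gene counts with RSEM, and the deposited values are these expected counts, normalized neither for depth nor for length. A strand setting was not given in the sources used here. Of 25 labelled mice, 1 WT female and 1 heterozygous male were without a column and not analysed here. Mice were named by sex in accession order.

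Expected counts were rounded, genes were filtered with edgeR's filterByExpr by genotype, normalized by TMM and tested with edgeR 4.0.16 (glmQLFit, glmQLFTest, R 4.3.3) with 3 genotypes and sex in one fit. Thresholds for DEGs followed the study. Log2 CPM used a prior count of 2. Symbols, coordinates and lengths came from GENCODE M21 (GRCm38), and 42929 of 43411 identifiers matched. Shared sequence was measured over 25-base stretches of transcripts. Correlations used 100000 permutations (scipy). Tests were checked on simulated counts. Total counts per mouse (10812877 to 16734740) limit the precision at low levels, and counting error does not include the variation between mice.

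Alternatives were DESeq2 1.42.0, limma-voom (limma 3.58.1), robust estimation, RLE and upper-quartile normalization, filters, thresholds (an adjusted p of 0.01 among them), no sex term, the compared groups alone, each number range, covariates, unrounded counts and each mouse left out. Library totals alone and leaving out the 4 Fos-high mice were added after seeing the data. The 10 genes and all lists were chosen with earlier results of these data known. Named genes were all 10, up to 4 passing genes per further list by smallest p, marker lists, Lyz1, Bin1 and Fos. The motifs, and Ccr2, Mrc1, Batf3, Slc1a3, Cnp, Mbp and Mag from the marker lists, were named after values were seen.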

Additional observations from a re-analysis of the deposited data

Results flagged for a closer look

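Among homozygous mice, 3 values lay far from the rest of their group. On the log2 CPM scale, the gap of the extreme mouse to its nearest neighbour, divided by the range of the group, was compared with Dixon's critical value of 0.466 for 10 mice. Axl in F2 was low, at 13.4 CPM against 20.8 CPM in the next mouse, with a ratio of 0.534. Itgax in F2 was low as well, at 2.13 CPM against 4.97 CPM, with a ratio of 0.467. Spp1 in M4 was high, at 28.6 CPM against 10.7 CPM, with a ratio of 0.483. On the linear CPM scale these ratios were 0.432, 0.267 and 0.718, so that 1 of the 3, Spp1 in M4, exceeded the critical value. In all, 30 groups were examined, and chance alone gives about 1 in 20. F2 is a Fos-high mouse of the 03xx range with the smallest library, and M4 belongs to the 04xx range. No cause was tested.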

How the results depend on the processing

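Between homozygous and WT mice, 4 DAM genes were DEGs, and between heterozygous and WT mice 0. Between homozygous and heterozygous mice the 5 DEGs fell to 3 with the homozygous mice of the 03xx range alone, where Cst7 (adjusted p = 0.0628) and Lgals3 (adjusted p = 0.127) did not pass and fewer mice were compared. Between the number ranges, 0 DAM genes were DEGs, and 1, Spp1, without a filter on low counts, and the cause was not tested. Of single genes, Clec7a against WT mice was called in 6 of 16 other alternatives (DESeq2, library totals alone, no filter, no sex term, the 2 groups alone, and without the 4 Fos-high mice), with log2 fold changes between 0.67 and 0.99. Spp1 against WT mice was called in 1 of 16, the 04xx range alone (log2 fold change 1.37, adjusted p = 0.0475), and against heterozygous mice in 2 of 16. Lgals3 against WT mice did not pass in the 03xx range alone (adjusted p = 0.129). Lyz2, Cst7 and Axl against WT mice were called in 16 of 16, with log2 fold changes of 1.11 to 1.52, 0.76 to 1.22 and 0.61 to 0.92. Trem2 passed in 16 of 16 (log2 fold change -0.51 to -0.36). With library totals alone the median of all genes shifted to 0.11, so that Trem2 stood at -0.38 there. No called or passing value changed sign. No paired analysis was possible because the mice carry no replicate numbers shared between genotypes. Depth limits Lgals3 most, and 2 WT females limit the comparisons within females.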
